A study of Homo sapiens with 4 samples.

Results

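RNA recovered with an antibody against LC3B from a native nuclear lysate of U2OS cells was compared with the RNA of the lysate it was taken from. The comparison used 2 of the 4 libraries of the study, the LC3B pull-down and its own input, and took every gene outside the mitochondrial chromosome with at least 50 reads in that input. These were 11107 of 60639 genes outside that chromosome and of 60676 genes in all, and 15 mitochondrial genes with at least 50 reads were set aside. U2OS is an established human osteosarcoma line, and per the labels the cells were kept in standard medium with serum; no treatment is named. The study also made a pull-down with non-specific IgG from the same line and an input for it, and neither input had any antibody. With 1 library in each of the 4 groups there were no replicates, no test across samples was possible, and a difference between antibodies cannot be told apart from one between single libraries. The assay, native nuclear RNA immunoprecipitation (nRIP), uses no crosslinking, so an RNA may be recovered directly or through a partner. Libraries were made with the SMART-Seq v4 kit for very small amounts of RNA.

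LC3B is a small ubiquitin-like protein of the ATG8 family, which is attached to lipid on the growing autophagosome and there binds receptors that carry cargo. A large part of the cell's LC3B lies in the nucleus, where it is not attached to lipid. LC3B has also been described as an RNA-binding protein, and mRNAs of fibronectin (FN1) and of the arginine methyltransferase PRMT1 are among those reported with it or with LC3.

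Counts were expressed as CPM, with the reads outside the mitochondrial chromosome as the total. These totals were 8542486 for the LC3B input and 10375786 for its pull-down, and 8404123 and 9824400 for the IgG pair. Mitochondrial genes had taken 20.8% of all reads of the LC3B input and 0.774% of its pull-down. At this depth 50 reads were 5.85 CPM in the input, and the compared genes had a median of 287 reads there and of 322 in the pull-down. They held 98.5% of the input and 98.2% of the pull-down on this scale, and 3 of them had no read in the pull-down. Of 8 mesenchymal and bone markers, 6 reached 50 input reads (among them VIM, SPARC and RUNX2) while COL1A2 and TWIST1 were at 0, and their summed level was 3270 CPM in the input and 3958 in the pull-down. Of 11 markers of other cell types 6 were at 0 in the input, EPCAM alone reached 50 reads, and the summed levels were 21 and 23.7 CPM.

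A fold is the CPM of the LC3B pull-down divided by that of its input, given with an exact 95% counting interval. In what follows a gene rose when the lower bound of the interval was at least 1.5 and fell when the upper bound was at most 0.667. The interval covers counting error only, since reads copied by PCR are not independent molecules, and CPM is a share, so each fold is relative to the other genes of the library. By this rule 938 genes (8.45%) rose and 1676 (15.1%) fell, and 8493 did neither. With bounds of 2 and 0.5 the numbers were 133 (1.2%) and 621 (5.59%). The balance turned around when mitochondrial reads were kept in the totals, which moved the median log2 fold by 0.32 and gave 2326 higher and 782 lower genes. The median log2 fold was -0.05 with quartiles of -0.58 and 0.41. The largest log2 value was 2.24, and among the named genes with reads left in the pull-down the smallest was -6.64. The genes that rose had a median fold of 1.98, and those that fell a median fold of 0.451. Genes just inside the read minimum (50 to 54 reads, 294 genes) had a median log2 fold of 0.13, and those just outside it (45 to 49 reads, 331 genes) one of 0.04.

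**Figure D1:**
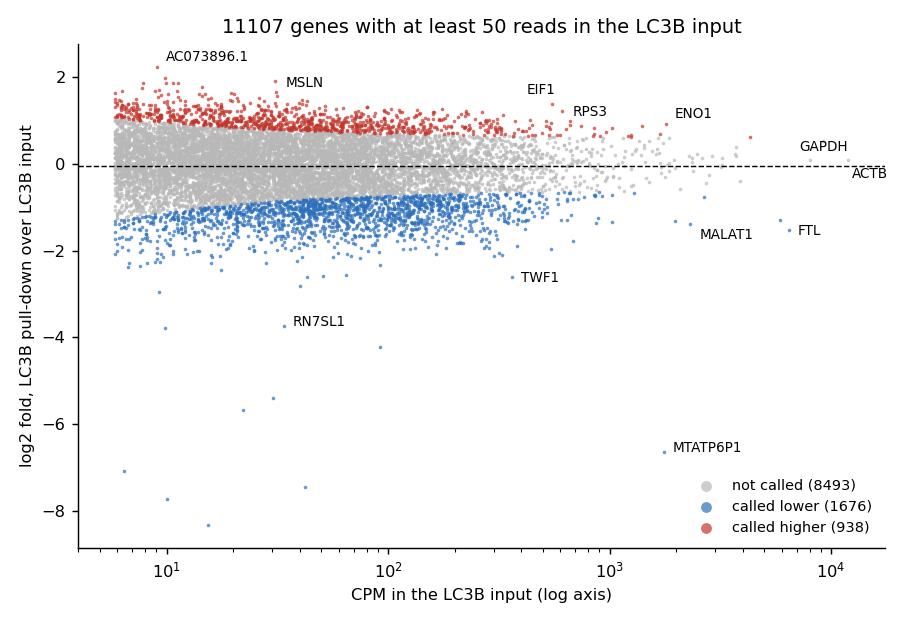
Each point is a gene with at least 50 reads in the LC3B input, placed by its CPM in that input (log axis) and by the log2 fold in the pull-down; red and blue mark the 938 genes that rose and the 1676 that fell, and the dashed line is the median of -0.05. Genes that rose reach a log2 fold of 2.24, while a few genes that fell lie far below the rest, such as MTATP6P1 and RN7SL1; the height of the 3 genes with no read in the pull-down depends on the 0.5 added to each count.

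The highest gene by the lower bound of its interval was AC073896.1, a protein-coding annotation with a clone name on chromosome 12 (56285916 to 56316059, minus strand, hg38). It had 9.01 CPM in the LC3B input and 42.7 in the pull-down, against 14.9 and 5.80 CPM in the IgG input and pull-down, and its fold was 4.74 (3.71 to 6.12). Its level with LC3B stood above all 3 other libraries, although its fold was 2.87 when the IgG input was the divisor. MSLN (chromosome 16, 760734 to 768865, plus strand), which encodes the cell-surface glycoprotein mesothelin, had 31.3 and 98.4 CPM in the LC3B input and pull-down and 30.9 and 31.8 in the IgG input and pull-down. Its 3 other libraries were nearly level, and its fold was 3.15 (2.75 to 3.62). CTNS (chromosome 17, 3636459 to 3661542, plus strand), the lysosomal exporter of cystine, went from 7.84 to 28.5 CPM with LC3B and from 10.5 to 0.407 CPM with IgG, a fold of 3.64 (2.78 to 4.82) over the LC3B input. KREMEN2, a receptor for the Wnt inhibitor Dickkopf, rose from 14.5 to 49.9 CPM, a fold of 3.44 (2.82 to 4.22). SAMD1, a chromatin protein that binds CpG islands, rose from 10.7 to 38.9 CPM, a fold of 3.66 (2.90 to 4.64).

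Others of the 15 highest were AVPI1 (fold 3.68), SCO2, a copper chaperone of cytochrome c oxidase (3.07), EFNB1, an ephrin ligand (3.39), CA11, a carbonic anhydrase-related protein (3.27), and NFE4 (3.24). AVPI1, EFNB1 and CA11 had no read in the IgG pull-down, which was so for 1218 of the 11107 compared genes and 44 of the 938 that rose. The set also held 3 long non-coding RNAs, AC018816.1 (fold 3.98), DLEU1 (3.11) and GIHCG (2.99). GIHCG and NFE4 also rose with IgG, at folds of 1.86 and 2.59. For H2AC19, a histone H2A gene with a fold of 3.77, and SLX1B, a nuclease subunit with a fold of 3.67, the inputs themselves were apart: H2AC19 had 31 CPM with LC3B and 95 with IgG, and SLX1B 9.95 and 21.7. Over the IgG input their folds were 1.23 and 1.69, neither past the bound, and both genes have a near-identical copy with which reads may be shared.

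Rises were also measured at abundant mRNAs, where the interval is narrow. EIF1 (chromosome 17, 41688885 to 41692668, plus strand), a factor that helps the ribosome find the start codon, had 548 CPM in the LC3B input and 1417 in the pull-down, and 561 and 531 CPM in the IgG pair. Its fold was 2.59 (2.5 to 2.67), and the LC3B pull-down was the one library that stood apart. EEF1D, a subunit of the elongation factor eEF1, had 329 and 722 CPM with LC3B and 329 and 392 with IgG, a fold of 2.19 (2.10 to 2.29). ENO1, the glycolytic enolase, had 1795 and 3422 CPM with LC3B and 1926 and 2633 with IgG, so that it was higher in both pull-downs than in either input. Its fold was 1.91 (1.87 to 1.94).

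Among the named genes that fell with reads left in the pull-down, those with the lowest folds were nuclear copies of mitochondrial DNA and a mitochondrial-like gene. MTATP6P1 (chromosome 1, 633696 to 634376, plus strand) had 1760.1 CPM in the LC3B input and 17.5 in the pull-down, and 1933 and 80.3 CPM in the IgG pair, a fold of 0.00997 (0.00856 to 0.0115). Near it on chromosome 1, MTCO1P12, MTCO2P12 and MTCO3P12 stood at folds of 0.0534, 0.0686 and 0.0173, and MTRNR2L12, the mitochondrial-like gene, on chromosome 3, at 0.0223. These loci closely match mitochondrial genes, whose own share fell in the same direction, and reads cannot be told apart where the sequences are the same. RN7SL1 (chromosome 14, 49586580 to 49586878, plus strand), an RNA of the signal recognition particle, had 33.8 and 2.51 CPM with LC3B and 23.8 and 14.1 with IgG. Its fold was 0.0741 (0.0476 to 0.111), and of 369 structured small RNA genes in the table it was the only one with 50 input reads.

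Of the named mRNAs with over 100 CPM in the input, TWF1 (chromosome 12, 43793723 to 43806375, minus strand), which encodes the actin monomer-binding protein twinfilin, fell furthest. It had 362 CPM in the LC3B input and 59.7 in the pull-down, and 365 and 104 CPM in the IgG pair. Both pull-downs were below both inputs, and its fold was 0.165 (0.151 to 0.180). YOD1, a deubiquitinase, went from 64.4 to 10.8 CPM, a fold of 0.168 (0.136 to 0.206), and CFAP97 and C5orf51 stood at 0.167 and 0.163. MAL2, a membrane protein of apical transport, went from 9.25 to 1.16 CPM, a fold of 0.125 (0.062 to 0.231).

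No read was left in the pull-down for 3 genes, and a floor of 3 reads then gives a bound. AL139300.1 had 132 input reads with LC3B, at least 53.4-fold more than in the pull-down, but also 0 reads in both IgG libraries. AL390038.1, a long non-coding RNA, had 86 reads, at least 34.8-fold more, while the IgG input and pull-down had 72 and 260. SPACA6P-AS, an antisense RNA, had 55 reads, at least 22.3-fold more, and 44 and 0 reads in the IgG pair. For AL139300.1 the fall thus rests on the LC3B input alone.

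**Figure D2:**
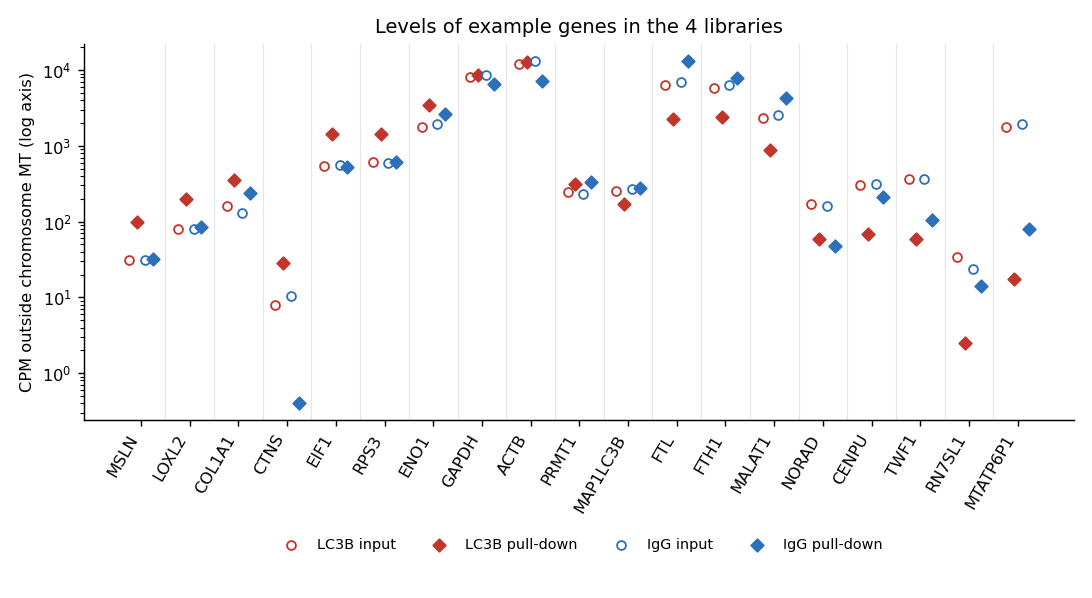
CPM outside the mitochondrial chromosome (log axis) of 19 named genes in the LC3B input and pull-down (red circles and diamonds) and in the IgG input and pull-down (blue circles and diamonds), 1 library each. The LC3B pull-down is the highest of the 4 libraries for MSLN, LOXL2, COL1A1, CTNS, EIF1, RPS3 and ENO1, and the lowest for MAP1LC3B, FTL, FTH1, MALAT1, CENPU, TWF1, RN7SL1 and MTATP6P1.

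The genes of the introduction (FN1, PRMT1 and MAP1LC3B) and the housekeeping genes GAPDH and ACTB did not pass the bound. FN1, which encodes the matrix protein fibronectin, had 43 and 47.5 CPM with LC3B and 39.3 and 52.1 with IgG, and its fold of 1.11 (0.964 to 1.27) includes 1. PRMT1 had 246 and 312 CPM with LC3B and 231 and 332 with IgG, a fold of 1.27 (1.2 to 1.34). Both genes were higher in each pull-down than in its input. MAP1LC3B, which encodes LC3B itself, had 254 and 169.5 CPM with LC3B and 269 and 282 with IgG. It was lowest in the LC3B pull-down, with a fold of 0.668 (0.627 to 0.711), whose interval lies below 1. GAPDH stood at 1.07 (1.06 to 1.08) and ACTB at 1.06 (1.05 to 1.07).

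By biotype, protein-coding genes lay close to the whole, with 821 of 10148 higher (8.09%) and 1564 lower (15.4%) and a median log2 fold of -0.07. Long non-coding RNAs lay above it: of 746, 99 rose (13.3%) and 77 fell (10.3%), with a median of 0.14, which is 0.19 above that of all genes. Those with LINC names (15 of 87 higher, 3 lower, median 0.21) and antisense names (21 of 153 higher, 13 lower, median 0.21) lay above those known only by a clone name (42 of 375 higher, 46 lower, median 0.02). The 23 divergent transcripts (3 higher, 2 lower) had a median of 0.26 and the 22 small nucleolar RNA hosts of this biotype (3 higher, 2 lower) one of 0.08. Pseudogenes of all classes lay close to the whole, with 16 of 188 higher (8.51%) and 29 lower (15.4%), but of these 14 and 12 passed over both inputs. Within them the 13 unprocessed pseudogenes had a median of -1.32 with 7 lower, among them the copies of mitochondrial DNA.

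Single long non-coding RNAs went both ways. TENM3-AS1 rose from 27.5 to 74.7 CPM with LC3B and stood at 29 and 26 CPM in the IgG pair, a fold of 2.72 (2.34 to 3.16). LINC02506 rose from 11.2 to 33.0 CPM, a fold of 2.93 (2.33 to 3.72), and SNHG30, a small nucleolar RNA host, from 41.1 to 107 CPM, a fold of 2.60 (2.31 to 2.94). SNHG30 also rose with IgG, from 36.5 to 119.6 CPM, a fold of 3.27 (2.89 to 3.72). FGD5-AS1, the antisense RNA with the most input reads, fell from 264 to 80.0 CPM, a fold of 0.303 (0.279 to 0.328), and SNHG14 from 66.1 to 19 CPM, a fold of 0.287 (0.243 to 0.338).

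A list of 12 measured long non-coding RNAs known for nuclear functions had 6 members lower (5 over both inputs) and 0 higher, and a median of -0.68. That median lay 0.63 below all genes, but only 0.36 below them over the IgG input and 0.42 without genes that differ between the inputs. MALAT1 (chromosome 11, 65497688 to 65506516, plus strand), a nuclear speckle RNA, had 2319 CPM in the LC3B input and 883 in the pull-down, and 2573 and 4233 CPM in the IgG pair. It was thus lowest in the LC3B pull-down and highest in the IgG pull-down, and its fold was 0.381 (0.371 to 0.390). NEAT1, the scaffold of paraspeckles, had 105 and 46.1 CPM with LC3B and 95.4 and 118 with IgG, a fold of 0.440 (0.393 to 0.492). NORAD, a member of the list that is mainly cytoplasmic and binds PUMILIO proteins, was low in both pull-downs, with 169 and 58.5 CPM for LC3B and 163 and 48.2 for IgG, a fold of 0.347 (0.315 to 0.382). MIAT fell from 30.3 to 11.3 CPM, a fold of 0.372 (0.296 to 0.464).

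The genes were also grouped into 49 lists of families and functions, which took in 2649 of the 11107 genes. These listed genes rose in 9.97% and fell in 14.8% of cases, close to the whole. For each list the counts below stand beside the background of 8.45% higher and 15.1% lower and its median beside the -0.05 of all genes, and no list was tested.

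The extracellular matrix list had the highest median of those with 8 or more measured genes. Of 70 genes in it 24 rose (34.3%) and 2 fell (2.86%), with a median of 0.55, and 22 and 2 did so over both inputs. LOXL2, a lysyl oxidase that crosslinks collagen, had 80.4 and 199 CPM with LC3B and 79.5 and 83.9 with IgG, a fold of 2.48 (2.27 to 2.7). TGFBI, an adhesive matrix protein, had 266 and 613 CPM with LC3B and 282 and 335 with IgG, a fold of 2.31 (2.20 to 2.42). For both genes the LC3B pull-down was the highest of the 4 libraries, and neither rose with IgG. MMP9, a gelatinase, rose from 72.9 to 169.6 CPM (fold 2.33, 2.12 to 2.55) and COL1A1, a chain of type I collagen, from 160.0 to 353 CPM (fold 2.21, 2.07 to 2.35), though COL1A1 also rose with IgG, by 1.83-fold. SPARC, the list's gene with the most input reads, stood at 1.10 (1.08 to 1.12). The members that fell were P4HA1 (fold 0.467) and PLOD2 (0.380), which hydroxylate collagen chains inside the endoplasmic reticulum. With IgG the same list had 20 higher and 18 lower genes and a median of 0.14. Among all genes there 15.3% were higher and 35.7% lower, and the median was -0.31, so the list lay above the whole with IgG too.

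Lists of lysosomal and sugar-transferring enzymes also had medians above the whole. Lysosomal hydrolases and membrane proteins had 12 of 49 higher and 3 lower, with a median of 0.23. Besides CTNS they included ARSA, arylsulfatase A (7.02 to 18.7 CPM, fold 2.66), and GRN, the progranulin gene (109 to 231 CPM, fold 2.11), both of which rose with IgG too, at folds of 3.65 and 3.14. IDS, iduronate sulfatase, fell at a fold of 0.516. Glycosyltransferases and sulfotransferases had 16 of 69 higher and 9 lower (median 0.34). HS6ST1 and NDST1, which sulfate heparan chains, rose at folds of 2.36 and 2.23, and GALNT1, which starts mucin-type glycans, fell at 0.301. Among 11 integrins 2 rose, ITGB5 (fold 2.28) and ITGA3 (1.93), and 3 fell, of which 1 did so over both inputs (median 0.16). ITGB5 also rose with IgG, at a fold of 1.79. ITGB1, the shared beta-1 chain and the integrin with the most reads, fell from 1978 to 789 CPM, a fold of 0.399 (0.388 to 0.410).

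Lists of transport between compartments had medians near the whole. The COPI and COPII list had 3 of 54 higher and 14 lower (median -0.10), with TMED2, a cargo receptor, falling from 866 to 337 CPM (fold 0.390, 0.374 to 0.406) and its relative TMED9 rising from 281 to 492 CPM (fold 1.75, 1.66 to 1.84). Not every gene of this list belongs to the coats: its lowest, COPS2 (log2 fold -1.59), encodes a subunit of the COP9 signalosome. The counts of the list are thus not those of coat genes alone. RAB GTPases had 1 of 42 higher and 7 lower (median 0.06), the rise being RAB10 (fold 1.78) and the falls including RAB8B (0.281) and RAB4A (0.345). Genes of protein entry into the endoplasmic reticulum had 4 of 49 higher and 8 lower (median -0.03), with SRP72, a protein of the signal recognition particle, at 0.320 (0.298 to 0.345). Solute carriers outside SLC25 (11 of 124 higher, 10 lower, median 0.10) and V-ATPase subunits (1 of 18 higher, 1 lower, median -0.05) lay near the whole. ATP6V1G1 was the V-ATPase gene that fell, from 303 to 104 CPM.

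mRNAs of cytosolic ribosomal proteins had the second highest median of these lists. Of 79 genes 23 rose (29.1%) and 0 fell, 65 had a log2 fold above 0, and the median was 0.46. RPS3 (chromosome 11, 75399515 to 75422280, plus strand) had 607 and 1424 CPM with LC3B and 592 and 608 with IgG, a fold of 2.35 (2.27 to 2.42). RPS27 had 176 and 421 CPM with LC3B and 174 and 145 with IgG, a fold of 2.40 (2.26 to 2.54). For both the LC3B pull-down stood apart from 3 libraries of much the same level. The range within the list ran down to RPL5, at a log2 fold of -0.64, and RPLP1, its gene with the most input reads, stood at 0.946 (0.930 to 0.961). With IgG 15.3% of all genes rose and 35.7% fell, and their median was -0.31. There the list had 3 higher and 15 lower genes and a median of -0.36, close to the whole. Its transcripts are short, with a median relative length of 0.237, and once a line on gene size was taken out (below) the list's median was 0.053 above that of all genes in place of 0.51.

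The rest of the translation machinery was divided. Translation factors had 7 of 48 higher and 10 lower (median 0.05): beside EIF1 and EEF1D, EIF6 rose (278 to 532 CPM, fold 1.91), while EIF3E (493 to 230.0 CPM, fold 0.466) and EIF3A (fold 0.497), subunits of the scaffold eIF3, fell. EEF1A1, with the most reads, stood at 0.987 (0.972 to 1.0). Aminoacyl-tRNA synthetases had 4 of 34 higher, led by VARS1 (fold 2.47), and 6 lower, led by RARS1 and TARS1 (0.522 and 0.529). Genes of ribosome biogenesis had 4 of 73 higher and 11 lower (median -0.16), with BOP1 at 1.95 and WDR43 at 0.351.

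Mitochondrial proteins encoded in the nucleus were divided too, unlike the RNAs of the mitochondrial genome. Mitochondrial ribosomal proteins had 9 of 78 higher and 17 lower (median -0.09), between MRPL24 (109 to 237 CPM, fold 2.17, 2.02 to 2.35) and MRPL19 (271 to 70.9 CPM, fold 0.262, 0.241 to 0.285). MRPL19 stood at 271 and 255 CPM in the IgG pair, so that the LC3B pull-down alone was low. Respiratory chain subunits had 13 of 77 higher and 7 lower (median 0.14), with COX4I1 (375 to 747 CPM, fold 1.99) and ATP5MC2 (223 to 478 CPM, fold 2.14) among the first. ATP5F1C (602 to 247 CPM, fold 0.410) and NDUFV2 (641 to 260.0 CPM, fold 0.406) were among those that fell.

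Glycolytic enzymes had 4 of 19 higher (ENO1, ALDOA, PKM and PFKL) and 0 lower, with a median of 0.36. ALDOA, the aldolase, had 662 and 1233 CPM with LC3B and 643 and 1259 with IgG, a fold of 1.86 (1.80 to 1.92), so that both pull-downs were equally high. PFKL did not pass the bound over the IgG input, where its fold was 1.41. Cholesterol and fatty acid synthesis had 5 of 32 higher and 3 lower (median 0.27): EBP (159 to 366 CPM, fold 2.30), SQLE (1.82) and FDPS (1.76) rose, while CYP51A1, the lanosterol demethylase, fell (0.515). EBP also rose with IgG, at a fold of 1.84. Actins, tubulins and their partners had 7 of 44 higher and 4 lower (median 0.25), with TUBA3C at 1.93 and the actin-severing CFL2 at 0.357.

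Iron handling had the lowest median of the metabolic lists, -0.54, with 1 of 16 genes higher and 5 lower. Its ferritin genes encode the subunits of the iron storage shell. FTL (chromosome 19, 48965309 to 48966879, plus strand) had 6459.9 CPM in the LC3B input and 2250.3 in the pull-down, and 7027 and 13178 CPM in the IgG pair. FTH1 had 5894 and 2410.2 CPM with LC3B and 6388 and 7985 with IgG. Both were lowest in the LC3B pull-down and highest in the IgG pull-down, with folds of 0.348 (0.343 to 0.354) for FTL and 0.409 (0.403 to 0.415) for FTH1. ISCU, a scaffold for iron-sulfur clusters, fell at 0.353, and HMOX2 was the member that rose, at 1.72 (1.57 over the IgG input, not past the bound).

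Lists of the cell division and nuclear machinery had medians below the whole. The mitosis, spindle and kinetochore list had 27 of 90 lower (30%) and 5 higher, with a median of -0.42. CENPU (chromosome 4, 184694085 to 184734130, minus strand), an inner kinetochore protein, had 300.4 and 68.8 CPM with LC3B and 316 and 210.5 with IgG, a fold of 0.229 (0.211 to 0.249). SGO2, a shugoshin that guards cohesin, had 164 and 38.9 CPM with LC3B and 164 and 37.4 with IgG, a fold of 0.237 (0.212 to 0.265). CENPU was low in the LC3B pull-down more than in the IgG pull-down, and SGO2 equally low in both. The kinesin CENPE fell at 0.336 (0.293 to 0.385), and CENPW and CENPM rose at 1.91 and 1.71. The list's highest gene was CENPBD1 (log2 fold 1.17), matched by its symbol, and a mitotic role for it was not checked. CCNB1, cyclin B1, with the most reads, stood at 0.966 (0.936 to 0.998).

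Nuclear pore and transport genes had 19 of 58 lower (32.8%) and 2 higher (median -0.37), among them SEH1L (493 to 212 CPM, fold 0.431), NDC1 (0.391) and the export factor XPO4 (0.327). The importins IPO13 and IPO4 rose, at 1.94 and 1.89. Chromatin remodellers and histone methyltransferases had 16 of 74 lower and 1 higher (median -0.39), of which 8 and 0 passed over both inputs, led by SETD9 (0.342) and SMARCE1 (413 to 146 CPM, fold 0.352, 0.331 to 0.374). Homologous recombination and Fanconi anaemia genes had 9 of 39 lower and 1 higher (median -0.37): RBBP8 (168 to 49.2 CPM, fold 0.292) and BRCA2 (45.9 to 13.6 CPM, fold 0.296) fell. DNA replication had 9 of 53 higher and 9 lower (median -0.08), of which 5 and 9 passed over both inputs, between RFC4 (2.04) and POLE2 (0.367). Replication-dependent histones had 3 of 26 higher and 4 lower (median -0.29), and their median turned from 0.23 below all genes to 0.17 above them with at least 200 input reads, and was 0.049 below them over the IgG input.

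C2H2 zinc finger factors, the largest list, had 6 of 314 higher (1.91%) and 44 lower (14%), with a median of -0.24. Its lower share was close to the 15.1% of all genes, and its higher share lay below their 8.45%. Its gene with the most reads, ZNF22, fell from 287 to 98.7 CPM, a fold of 0.344 (0.319 to 0.370). Mediator, TFIID and RNA polymerase II had 4 of 68 higher and 11 lower (median -0.17), between GTF2H4, of the general factor TFIIH (2.56), and MED1 (0.307). HOX genes, the homeodomain factors of body patterning, had 2 of 15 higher, HOXD11 (10.2 to 31.4 CPM, fold 3.09, 2.43 to 3.95) and HOXB13 (6.32 to 16.2 CPM, fold 2.56), and 0 lower (median 0.35).

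Lists of factors that act on RNA differed among themselves. DEAD and DEAH box helicases had 11 of 48 lower and 2 higher (median -0.28), with DDX59 at 0.315 and DDX52 at 0.391. The mRNA decay and deadenylation list had 13 of 61 lower and 6 higher (median -0.40). CNOT7, a deadenylase (334 to 140.0 CPM, fold 0.419), and XRN1, the 5' exonuclease (fold 0.332), fell, while the exosome subunits EXOSC4 and EXOSC5 rose at 2.26 and 1.90. The list's lowest gene was LSM12 (217 to 61.3 CPM, fold 0.282), which is in it by its symbol and is not an established decay factor. SR and hnRNP splicing factors had 7 of 57 lower and 1 higher (median -0.03), with U2SURP at 0.263 and HNRNPA0 at 1.84. m6A factors had 2 of 18 lower, CBLL1 (0.468) and VIRMA (0.333), and 1 higher, the demethylase gene ALKBH5 (55.5 to 105 CPM, fold 1.89). Of 8 PRMT genes 0 rose and PRMT3 fell (39.9 to 19.6 CPM, fold 0.490), with a median of 0.31.

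The 3 autophagy lists, to which LC3B itself belongs, had 3 of 59 genes higher (5.08%) and 12 lower (20.3%). Among ATG8 genes and the enzymes that conjugate them, 1 of 16 rose and 2 fell (median 0.15): the protease gene ATG4D at 2.01 (1.61 to 2.52, and 1.78 over the IgG input, not past the bound), ATG12, the ubiquitin-like partner of ATG5, at 0.574 (0.522 to 0.631), and ATG10, its E2-like enzyme, at 0.474 (0.397 to 0.565). Of 20 initiation and membrane genes 1 rose and 6 fell (30%, median -0.22), 4 of the 6 over both inputs. ATG101, of the ULK1 complex, had 39.7 and 106 CPM with LC3B and 44.4 and 23.5 with IgG, a fold of 2.66 (2.35 to 3.02). Its partner RB1CC1 (FIP200) had 91.0 and 29.2 CPM with LC3B and 88.6 and 32.2 with IgG, a fold of 0.321 (0.280 to 0.367). These genes of 1 complex moved in opposite directions with LC3B and in the same direction with IgG. Of 23 receptors 1 rose, FKBP8 (1.80), and 4 fell, TAX1BP1 (411 to 191 CPM, fold 0.464), BNIP3L (295 to 142 CPM, 0.482), CCPG1 (0.40) and SEC62 (0.474), with a median of -0.18.

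Chaperone and ubiquitin lists had medians below the whole, and the proteasome list one above it. Chaperones had 3 of 64 higher and 14 lower (median -0.31), the rises being HSPA1A, HSPA1B (near-identical copies) and HSPB2 (1.54 over the IgG input, not past the bound) and the falls including HSP90B1 (2663 to 1573 CPM, fold 0.591). Ubiquitin conjugation and removal had 9 of 173 higher and 36 lower (median -0.24), with UBE2S, an E2 of the anaphase-promoting complex, rising from 849 to 1507 CPM (fold 1.78, 1.73 to 1.83) and UBE2E3 falling from 333 to 133 CPM (fold 0.40). Proteasome subunits had 3 of 46 higher and 5 lower (median 0.11). Among stress lists, p53 targets had 4 of 28 higher (PHLDA3, FDXR, BBC3 and GDF15) and 5 lower, including MDM2, the E3 ligase of p53 (79.0 to 32.9 CPM, fold 0.416). PHLDA3 also rose with IgG, at a fold of 1.73. NRF2 targets had 2 of 21 higher and 4 lower, and their list also holds KEAP1, the inhibitor of NRF2, which rose (28.3 to 58.7 CPM, fold 2.07). NRF2's own gene NFE2L2 fell (169 to 92.9 CPM, fold 0.549). Immediate-early and AU-rich element mRNAs had 3 of 38 higher and 2 lower (median 0.16), with ARC at 2.0 and ZFP36 at 0.357.

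**Figure D3:**
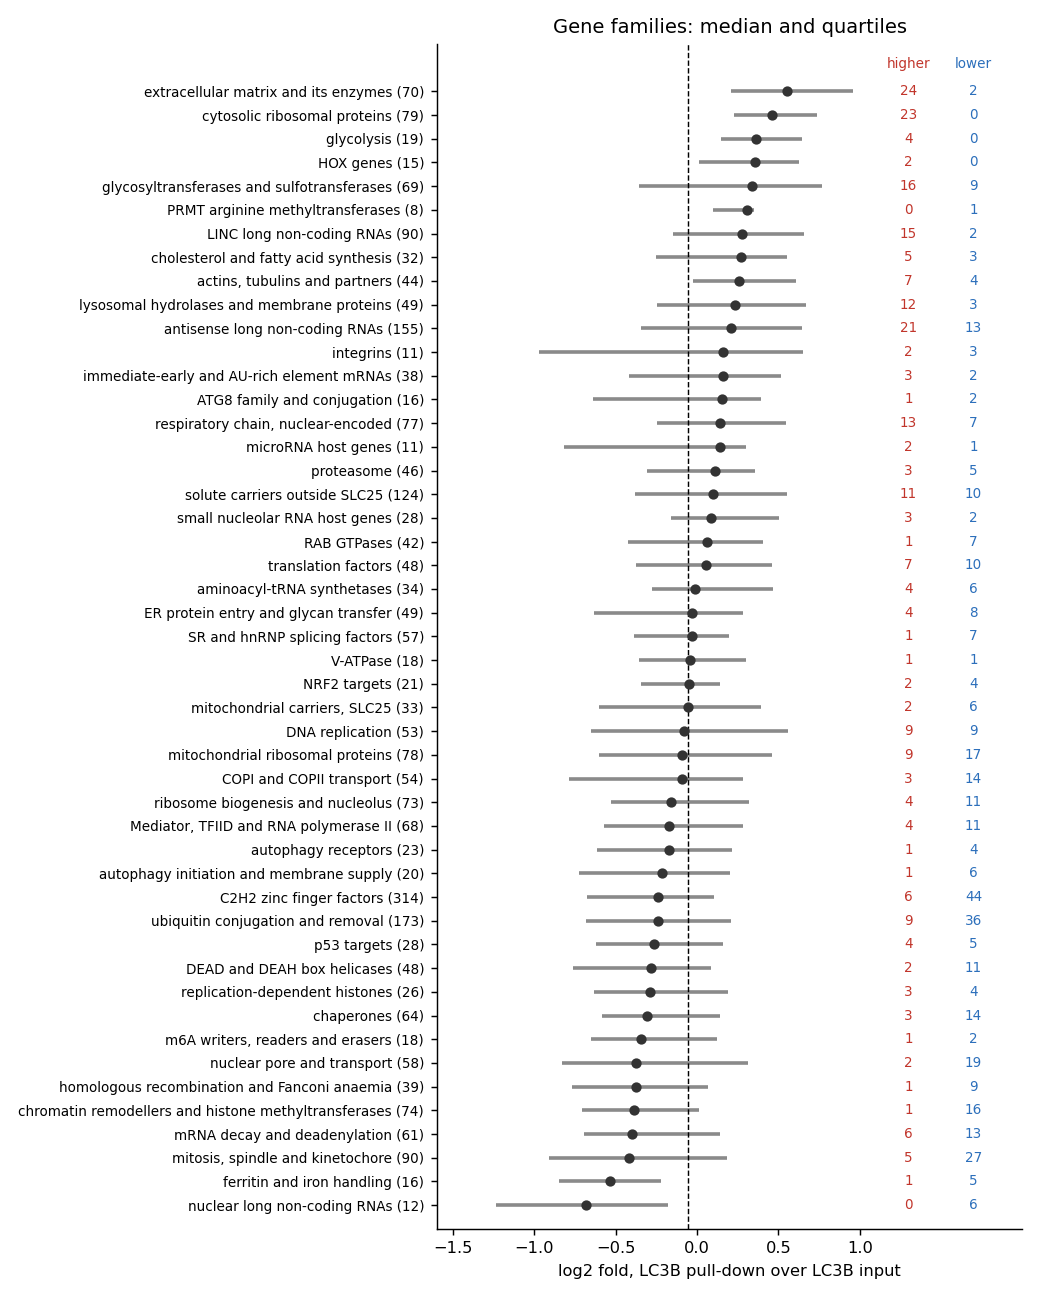
Median (point) and quartiles (bar) of the log2 fold with LC3B for the 48 gene lists with 8 or more measured genes, whose number is in brackets, with the count that rose in red and that fell in blue; the dashed line is the median of all genes, -0.05. Extracellular matrix (0.55) and cytosolic ribosomal proteins (0.46) lie at the top and nuclear long non-coding RNAs (-0.68) at the bottom, and the quartiles of most lists span the dashed line.

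Across all compared genes, in the lists or not, those that rose and those that fell differed in size. The median genomic span, from the first to the last annotated base, was 13.2 kb for genes that rose, 31.2 kb for those that did neither and 48.9 kb for those that fell. Their median transcript length relative to all compared genes, taken from the ratio of deposited count to deposited TPM in the LC3B input, was 0.714, 1.0 and 1.18. Across the 11107 genes, which share both libraries and are no replicates, the log2 fold had a Spearman correlation of -0.290 with span and of -0.271 with transcript length. In 10 equal groups by span the median went from 0.31 in the shortest to -0.35 in the ninth and -0.24 in the longest. In 10 equal groups by transcript length it went from 0.26 to -0.42. With 3 equal groups by each measure, of 1872 genes in the lowest group of both 346 rose (18.5%) and 116 fell (6.2%), and of 1779 in the highest group of both 34 rose (1.91%) and 406 fell (22.8%).

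The same direction was measured with IgG, where the correlations were -0.193 with span and -0.274 with transcript length. Between the inputs they were 0.029 and 0.102. In a straight-line fit over all genes the log2 fold changed by -0.06 for each doubling of span and by -0.14 for each doubling of transcript length, which took up 8.78% of its variance. Among the 746 long non-coding RNAs the correlation was 0.046 with span and -0.318 with transcript length. Their median lay 0.0079 above that of all genes after the fit, in place of 0.19. The matrix list, whose transcripts are long (median relative length 1.42), lay 0.71 above all genes after the fit and 0.61 before it. The mitosis list lay 0.36 below all genes both before and after it, and the chromatin list 0.33 below before and 0.14 after. How library preparation, RNA fragmentation or selection in the pull-down bear on the relation with size was not tested.

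**Figure D4:**
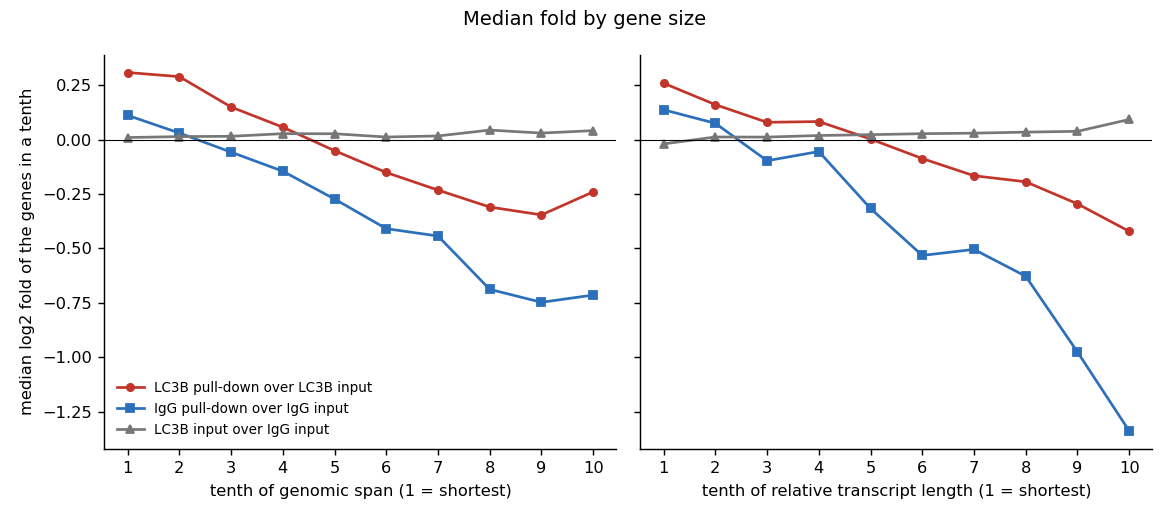
Median log2 fold of 10 equal groups of genes by genomic span (left) and by relative transcript length (right), for LC3B (red) and IgG (blue), each pull-down over its own input, and for the LC3B input over the IgG input (grey). The red line falls from 0.31 to -0.24 with span and from 0.26 to -0.42 with transcript length, the blue line falls further, and the grey line stays near 0.

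Chromosome medians fell with the median span of their genes, but chromosomes also differed within groups of like span. Chromosome 19, with short genes (median span 15.8 kb), had 20% of its 680 genes higher and 4.56% lower and a median of 0.36, followed by chromosomes 22 (0.24), 16 (0.17) and 17 (0.16). Chromosomes 13 (-0.40), 4 (-0.34), 18 (-0.31) and 5 (-0.28), whose genes span medians of 51.1, 54.7, 50.8 and 42.8 kb, were lowest. Over 23 chromosomes the Spearman correlation of the median log2 fold with the median span was -0.918, and with IgG it was -0.713; the chromosomes share the 2 libraries, and this is a description. Within 3 equal groups by span chromosome 19 had medians of 0.43, 0.33 and 0.08 from the shortest genes to the longest, and chromosome 13 had 0.00, -0.40 and -0.45. Chromosome 19 thus lay above chromosome 13 at each size. Chromosome 22 changed little with size, with medians of 0.27, 0.21 and 0.19. Chromosome 4 was low in every group, at -0.23, -0.38 and -0.34, and chromosome 18 had -0.01, -0.60 and -0.30.

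**Figure D5:**
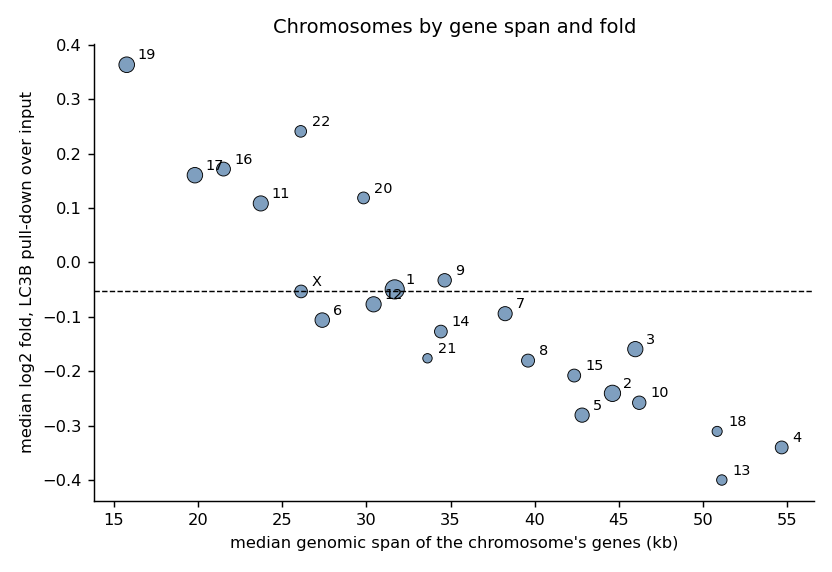
Each point is a chromosome, placed by the median genomic span of its compared genes (kb) and their median log2 fold with LC3B, with point area growing with the number of genes; the dashed line is the median of all genes, -0.05. Chromosome 19 stands highest at 0.36 and 15.8 kb, and chromosomes 13, 4 and 18 stand lowest with spans above 50 kb.

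The other libraries can be set beside these counts, but none is a second LC3B pull-down. The spread between pull-downs was thus not measured, and the difference between the inputs does not stand for it. The inputs differed at few genes: the LC3B input was higher than the IgG input at 34 (0.306%) and lower at 6 (0.054%). With the IgG input as the divisor, and so with the same pull-down library, 1116 genes (10%) were higher and 1592 (14.3%) lower. Of the 938 genes that rose over the LC3B input 767 (81.8%) did so over the IgG input too, and of the 1676 that fell 1372 (81.9%) did, and 0 genes passed the bounds in opposite directions. The IgG pull-down over its own input, which shares no library with the LC3B pair, had 1696 genes higher (15.3%) and 3960 lower (35.7%), and 1218 of the compared genes had no read in it. Of the genes that rose with LC3B, 300 rose with IgG (32% of the LC3B set and 17.7% of the IgG set), 480 did neither and 158 fell. Of those that fell with LC3B, 789 fell with IgG (47.1% and 19.9%), 818 did neither and 69 rose.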

How the data were processed

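One deposited table holds raw read counts for each Ensembl gene, with digits grouped by commas that were removed, and another deposited table holds TPM, which the authors divided by transcript length. Units are those of the file headers and coordinates those of these tables. The submitters' processing notes name the trimmer cutadapt 2.8, the aligner STAR 2.7.1a and build hg38. Not given in the sources used here are the counter, the annotation release, the strand setting and what was done with shared reads, so overlapping, antisense and near-identical genes are uncertain.

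CPM was taken over genes outside the mitochondrial chromosome. Folds of the LC3B pull-down over the LC3B input were computed for genes with at least 50 input reads, with exact conditional binomial (Clopper-Pearson) 95% intervals (Python 3.11.15, SciPy 1.17.1); 3 reads, 0.289 CPM in the LC3B pull-down, served as the floor for a count of 0. Log2 folds had 0.5 added to each count. No p-value was computed, since each group holds 1 library. The intervals were tried on simulated counts with Poisson error alone and known totals. That is the setting the intervals assume, so the trial does not bear on PCR copies or on spread between libraries.

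The genes, the 49 lists and the call rule were chosen with earlier results of these data known. Named genes were the 15 highest and 15 lowest by interval bound, the 5 highest and 5 lowest among long non-coding RNAs and among pseudogenes, up to 4 in each direction in each list with its most abundant gene, and 7 reference genes; the 23 genes that share a symbol were not named. Some genes that this rule selects are not reported here. Genes were matched to lists by the symbols of the table. Alternatives were TMM and median-of-ratios scaling in purpose-written code, totals with mitochondrial genes or without the 10 most abundant genes, other read minimums, thinning, the deposited TPM, other call rules and the IgG input. A line on gene size, calls over both inputs and leaving out genes that differ between inputs were added after the data were seen. A planned comparison of protein features was not run, since no protein sequences were used here.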

Additional observations from a re-analysis of the deposited data

Results flagged for a closer look

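Between the 2 antibodies some genes moved in opposite directions over their own inputs, which was not tested, since each group holds 1 library. AVPI1, CA11 and EFNB1 rose with LC3B but had 0 reads in the IgG pull-down, against 110, 117 and 60 reads in the IgG input. A count of 0 there was found for 1218 of the 11107 compared genes and for 44 of the 938 that rose. CTNS rose with LC3B and stood at a fold of 0.0389 with IgG (88 reads in the input, 4 in the pull-down), and SLX1B at 0.0799, KREMEN2 at 0.355 and AC073896.1 at 0.390 with IgG. AL390038.1 went the other way, with 0 reads in the LC3B pull-down and a fold of 3.09 with IgG. Such opposite moves were less common than the shares over all genes: 16.8% of the genes that rose with LC3B fell with IgG, against 35.7% of all genes. Of those that fell with LC3B 4.12% rose with IgG, against 15.3% of all genes.

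Genes below the minimum of 50 input reads were counted too. Of 49532 such genes 15166 had a read in either LC3B library. Of these 401 met the bound for a rise with LC3B and 287 that for a fall, smaller shares than the 8.45% and 15.1% of the compared genes. Of the 401, 186 had at least 50 reads in the pull-down and 147 were long non-coding RNAs. No read in the IgG pull-down was found for 218 of them, but that library had reads for 14440 of all 60676 genes. Some of these rises go with a count of 0 in the LC3B input alone: AC005538.2 had 0 reads there and 129 in the IgG input, and AC087721.2 0 and 131.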

How the results depend on the processing

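The main comparison called 938 genes higher and 1676 lower. With mitochondrial reads kept in the totals these were 2326 and 782, with at least 200 input reads 613 were higher, with deposited TPM and no interval 1515 and 3170, with bounds of 2 and 0.5 133 and 621, and with point folds in place of intervals 1889 and 2753. Under the other settings they stayed within 1.5 times: TMM 879 and 1738, median-of-ratios 944 and 1665, at least 20 input reads 1057 and 1818, thinned libraries 929 and 1624, and genes not apart between the inputs 915 and 1621. The long non-coding RNA median lay 0.19 above that of all genes, and 0.11 with at least 20 reads, 0.32 with at least 200 and 0.0079 after the line on gene size. For cytosolic ribosomal proteins the 0.51 became 0.39 over the IgG input and 0.053 after the line. After that line 7 lists changed side, to -0.18 for the respiratory chain, -0.051 for the proteasome, -0.086 for small nucleolar RNA hosts, -0.036 for protein entry into the endoplasmic reticulum, -0.10 for SR and hnRNP factors, -0.060 for NRF2 targets and 0.036 for autophagy initiation; the cause was not tested. Of the named genes, 42 were no longer past the bound with mitochondrial reads in the totals and 31 over the IgG input, and 0 reversed; AL139300.1 had no read in the IgG input and so no fold there. No paired analysis was possible because each group holds 1 library and the 2 inputs cannot serve as replicates of a pull-down. With 50 input reads a gene needed a fold well past 1.5 to be called, and smaller changes were not detectable at this depth.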

Other observations

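Words of the deposited gene descriptions were taken up after the values were seen and without a test. They gave further groups, which may share genes with the lists, to be read beside the 8.45% higher and 15.1% lower of all genes. Many words borne by at least 30 compared genes were looked at. Those given here are among the lowest and highest by median. Of 38 genes described as centrosomal, 15 fell and 0 rose with LC3B, with a median log2 fold of -0.70. Their median span was 68.8 kb, against 32 kb for all compared genes. They included LRRCC1 (332 reads in the input and 85 in the pull-down, fold 0.211), CEP290 (253 and 88, fold 0.286) and CEP295 (233 and 101, fold 0.357), and CEP72 (79 and 165, fold 1.72) stood highest. With IgG 20 of the 38 fell and 1 rose, where 35.7% of all genes fell and 15.3% rose. Genes with a BTB domain in their description had 15 of 49 lower and 0 higher (median -0.47), those with tetratricopeptide repeats 8 of 34 lower and 1 higher (median -0.57), and kinesins 9 of 34 lower and 1 higher (median -0.39). Above the whole lay genes described by growth, such as growth factors and their receptors (10 of 78 higher, 7 lower, median 0.35), by oxidase (8 of 49 higher, 2 lower, median 0.28) and by adhesion (7 of 33 higher, 1 lower, median 0.27).

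Near-identical gene pairs, also chosen after their values were seen, had counts that differed between copies from library to library; how the counting treated shared reads was not tested. RGPD6 had 7 input reads and 138 pull-down reads with LC3B while its copy RGPD5 had 343 and 59. The pair together had 350 and 197 reads, a fold of 0.463. H3C14 and H3C15 had the same 115 reads each in the IgG input and the same 132 each in the LC3B pull-down, but 0 and 278 in the input of that pull-down. Together they stood at a fold of 0.782, where H3C15 alone stood at 0.391. H2AC19 with its copy H2AC18 stood at 1.56 in place of 3.77, and SLX1B with SLX1A at 1.90 in place of 3.67.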
